A study of Homo sapiens with 4 samples.

Results

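Peaks of N6-methyladenosine (m6A) that begin in the first 100 nt of a RefSeq transcript are described here. The cells were HEK293T, a widely used line of human embryonic kidney origin. Members were chosen by position alone: every listed peak whose first position, counted from 1 at the transcript's 5′ end, was 100 or less. This gave 639 of 23623 peaks in the list named Ctrl and 517 of 23134 in the list named Cas, with 1 such peak per transcript. They are called start peaks below. They lay on 637 genes in Ctrl and 516 in Cas, 779 genes in all.

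m6A was mapped by MeRIP-seq: polyadenylated RNA is cut into fragments, those that bind an m6A antibody are sequenced, and an uncaptured input is kept. Per the labels, every sample was HEK293T transfected by polyethylenimine with dCas13b-M14 and a guide RNA, harvested after another 24 h, and the series' aim was methylation directed to YTHDF2, SPEN and GAPDH. The treatment text is the same for Ctrl and Cas, so the labels do not tell how the 2 groups differed. There were 4 libraries, 1 input and 1 immunoprecipitation per group, and the 2 immunoprecipitation lists were analysed. No group had a replicate library: each interval below is a Wilson 95% interval on the counting of peaks, and differences between the lists are differences between 2 libraries.

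As background, m6A in mRNA is written by a complex around METTL3 and METTL14, mainly in the context DRACH (D is A, G or T, R is A or G, H is A, C or T), and is read by YTH domain proteins. Most of it lies in long internal exons and around stop codons. The 5′ end is a special case. When the first transcribed base is an A, it is usually 2′-O-methylated next to the cap and can be methylated at N6 by PCIF1, which gives m6Am. Antibodies raised against m6A bind m6Am as well, and a list of peaks does not tell the marks apart. Within a 5′ UTR, m6A has been linked to translation that does not use the usual cap-binding route.

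The annotated starts are shown for transcripts whose peaks began near the cap in both lists, because the first base decides whether m6Am can form. The 10 genes below had a start peak beginning at 25 or less in both lists and a transcript model whose 5′ end lay within 10 nt of the RefSeq gene start. Each line runs 5′ to 3′ from 10 bases before the RefSeq gene start to 20 bases from it, and the capitals mark the base before the start and the first base.
ENO1: cggcgcggaCAgtatctgtgggtacccgga
FAM98B: ccggcgggcTActtagagcgccgaacagct
H4C14: tcgccttgaCAgaagctgtctatcgggctc
H4C16: actggcaatCAcagtgggcagcccgatttt
KDM4A: tgccgacttTAgaggaggcggagtttcggc
TRUB1: tgtcaggcgCActcttgttgcatcatcagc
CRBN: ggcaccgccCTgtcccagcctcctttgcgg
GCN1: aagcggttcCGgagtcagccccggcaggat
MTHFD1: gggttgggtTGtcctgcttggctgcggagg
WDR82: gctcctcgcCCtcagcttctgcctgtcgcc
At the RefSeq gene start the first 6 lines have A and the other 4 another base, so these peaks were not limited to gene starts with A. The model's own 5′ end can lie up to 10 nt away, so the listed transcript may begin with a different base. The models of ENO1, FAM98B and H4C16 began on the capital first base. Those of KDM4A, TRUB1, CRBN and MTHFD1 began on a nearby G, and those of H4C14, GCN1 and WDR82 began 2, 5 and 6 nt farther in. The peaks of FAM98B, H4C14 and WDR82 began at position 1 of the transcript in both lists, while those of MTHFD1 began at 23, on the last printed base. The sequences are RefSeq's for GRCh38.p14. They lie on the plus strand at chr15:38454117-38454146 (FAM98B), chr1:149832647-149832676 (H4C14), chr1:43650139-43650168 (KDM4A), chr10:114938185-114938214 (TRUB1) and chr14:64388343-64388372 (MTHFD1). On the minus strand they lie at chr1:8878667-8878696 (ENO1), chr12:14771112-14771141 (H4C16), chr3:3179698-3179727 (CRBN), chr12:120194696-120194725 (GCN1) and chr3:52278630-52278659 (WDR82).

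ENO1 encodes a glycolytic enolase. Its peak spanned 7 to 220 in Ctrl and 7 to 190 in Cas, from exon 1 into exon 3 in Ctrl and into exon 2 in Cas. H4C14 and H4C16 encode histone H4, and both are single-exon genes. H4C14 was covered from 1 to 160 in both lists, and H4C16 from 8 to 150 in Ctrl and 25 to 174 in Cas. WDR82 encodes a subunit of SET1 histone methyltransferase complexes, and its peak lay wholly in the 5′ UTR, at 1 to 138 in Ctrl and 1 to 143 in Cas. GCN1, a ribosome-associated activator of the kinase GCN2, had the same peak, 20 to 157, in both lists. TRUB1, a pseudouridine synthase, was covered from 11 to 212 in Ctrl and from 11 to 210 in Cas. MTHFD1, an enzyme of folate metabolism, began at 23 in both lists and ended at 163 in Ctrl and 150 in Cas. The ends differed more in CRBN, the substrate receptor of a ubiquitin ligase (12 to 330 in Ctrl, 14 to 220 in Cas), and in KDM4A, a histone demethylase (6 to 220 and 18 to 160).

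Start peaks were fewer in Cas, both in number and as a share of the list. In Ctrl they were 2.71% of the peaks (2.51 to 2.92) and in Cas 2.24% (2.05 to 2.43), and these intervals do not overlap. Without peaks whose ends both lie on a 10-base grid (defined below) they were 2.67% (2.44 to 2.92) and 2.33% (2.12 to 2.58), and those intervals overlap. Among the wider 50% of both lists, start peaks numbered 195 in Ctrl and 201 in Cas, so that the order turned. Of the transcripts with any listed peak, 5.96% in Ctrl and 5.11% in Cas had a start peak, the background for the gene groups below. The number of peaks by first position was not level near the start. In windows of 50 nt it went from 285 at 1 to 50 to 354 at 51 to 100, then 259 at 101 to 150 and 259 at 151 to 200 in Ctrl. In Cas the same windows held 214, 303, 232 and 252. Both lists therefore had a local maximum at 51 to 100, and beyond 250 nt the counts rose again toward the body of the transcript. At the limit itself, 59 Ctrl and 60 Cas peaks began at 91 to 100 and 64 and 47 at 101 to 110. The lists differed most at the very start: 125 Ctrl start peaks (19.6%, 16.7 to 22.8) and 87 Cas start peaks (16.8%, 13.9 to 20.3) began in the first 25 nt. As shares of the start peaks these overlap within their intervals.

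**Figure D1:**
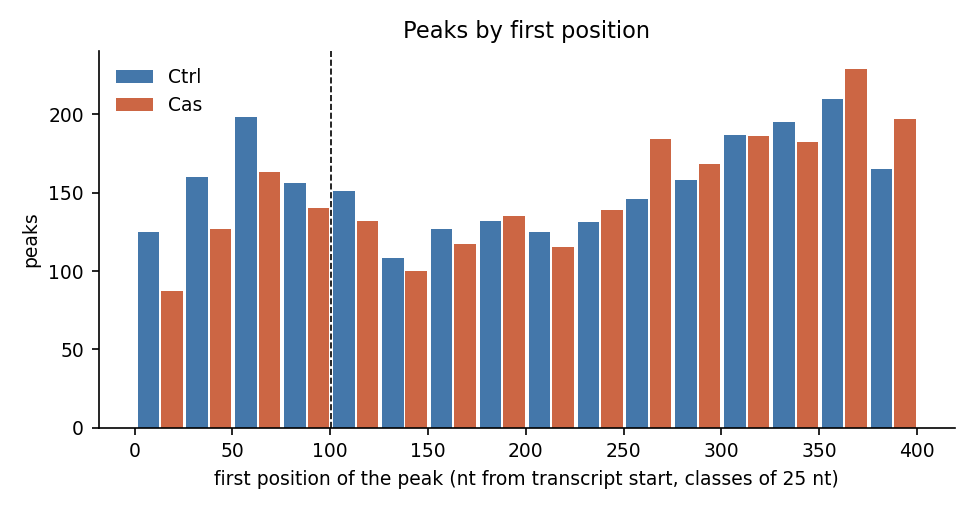
Number of listed peaks (y axis) by first position along the transcript in nt (x axis, classes of 25 nt up to 400), in Ctrl (blue) and Cas (orange). The dashed line marks the limit of 100 nt. Ctrl is above Cas in each of the 4 classes left of the line, and both lists are highest there at 51 to 75.

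Position 1, where a peak starts with the transcript, held 46 Ctrl and 23 Cas peaks, and 13 transcripts had such a peak in both lists. Among the 13 were the histone H4 genes H4C3, H4C14 and H4C15, DDX3X (an RNA helicase), CDK12 (a kinase of RNA polymerase II), FGF2 (a growth factor whose mRNA has upstream CUG starts) and the transcription factor gene ONECUT2. DDX3X was covered from 1 to 167 in Ctrl and 1 to 169 in Cas, and CDK12 from 1 to 148 and 1 to 140. Another 9 transcripts had a Ctrl peak at 1 and a Cas start peak farther in, and 6 the reverse. For CHD3, a chromatin remodeler, the Ctrl peak spanned 1 to 148 and the Cas peak 10 to 145. Ends on a grid, meaning a first position of 1, 11, 21 and so on together with a last position that is a multiple of 10, were frequent here: 35 of 46 Ctrl and 21 of 23 Cas peaks at position 1, against 28.2% and 25.7% of all start peaks. A first position of 1 is itself on the grid, so part of this excess is given by the choice. The labels do not say what this grid means. These genes are named because of their position, after it was seen.

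The comparison of Ctrl with Cas by position asked how many start peaks of one list met a peak of the other. Of all peaks, 24.2% in Ctrl and 22% in Cas had no overlapping peak (at least 1 shared base on the same transcript) in the other list. Of the start peaks, 202 Ctrl peaks (31.6%, 28.1 to 35.3) and 90 Cas peaks (17.4%, 14.4 to 20.9) had none. Ctrl start peaks thus met a partner less often than the other Ctrl peaks (24% without one, 23.5 to 24.6), and Cas start peaks more often than the other Cas peaks (22.2%, 21.6 to 22.7). Peaks beginning at 101 to 200 lay between, with 26.8% in Ctrl and 20.7% in Cas. The numbers overlapped were close, 437 in Ctrl and 427 in Cas, so the shares differ mainly through the larger number of Ctrl start peaks. Of the 639 Ctrl start peaks, 375 overlapped a Cas start peak and 62 overlapped only a Cas peak that began past 100. A further 152 had no overlap although Cas listed another peak on that transcript, and 50 lay on transcripts with no Cas peak. Of the 517 Cas start peaks, the same counts were 375, 52, 61 and 29. The shared 375 transcripts were 58.7% of the Ctrl members and 72.5% of the Cas members.

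The difference between the lists was largest at the very start. Of the peaks that began at 1 to 10, the overlapped share was 56.2% in Ctrl (44.1 to 67.7, 64 peaks) and 88.6% in Cas (74 to 95.5, 35 peaks). In the 9 following classes of 10 nt up to 100, the overlapped share ranged from 62.7% to 78.7% in Ctrl and from 76.8% to 88.2% in Cas. Peaks with both ends on the grid were overlapped less often than the rest, in Ctrl 45% of 180 (37.9 to 52.3) against 77.6% of 459, in Cas 72.2% of 133 (64 to 79.1) against 86.2% of 384. Among the wider start peaks, set against all peaks of the other list, 81.4% of 323 in Ctrl (76.8 to 85.3) and 88.9% of 261 in Cas (84.5 to 92.2) were overlapped. The part of depth and of calling thresholds in these shares was not tested.

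Width moved with the overlap. Start peaks were narrower than the other peaks, with a median of 160 nt in Ctrl (quartiles 136 and 205) and 169 nt in Cas (139 and 211) against 195 and 189 nt. Those without an overlap had medians of 140 and 141 nt. Within classes of width, Ctrl start peaks were overlapped about as often as other Ctrl peaks: 38.9% (31 to 47.5) against 39.4% at 100 to 129 nt, 66.5% (59.4 to 72.9) against 67.9% at 130 to 159 nt, 73.1% (66.1 to 79.2) against 79% at 160 to 209 nt, and 91.2% (85.5 to 94.8) against 89.3% at 210 nt and more. Cas start peaks were overlapped more often than other Cas peaks of like width in the 3 narrower classes: 70.3% (60.8 to 78.3) against 58.2%, 79% (71 to 85.3) against 68.4%, and 88.8% (82.8 to 92.9) against 78.1% at 160 to 209 nt. At 210 nt and more the Cas shares were 87.9% (81.4 to 92.3) and 90.1%.

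**Figure D2:**
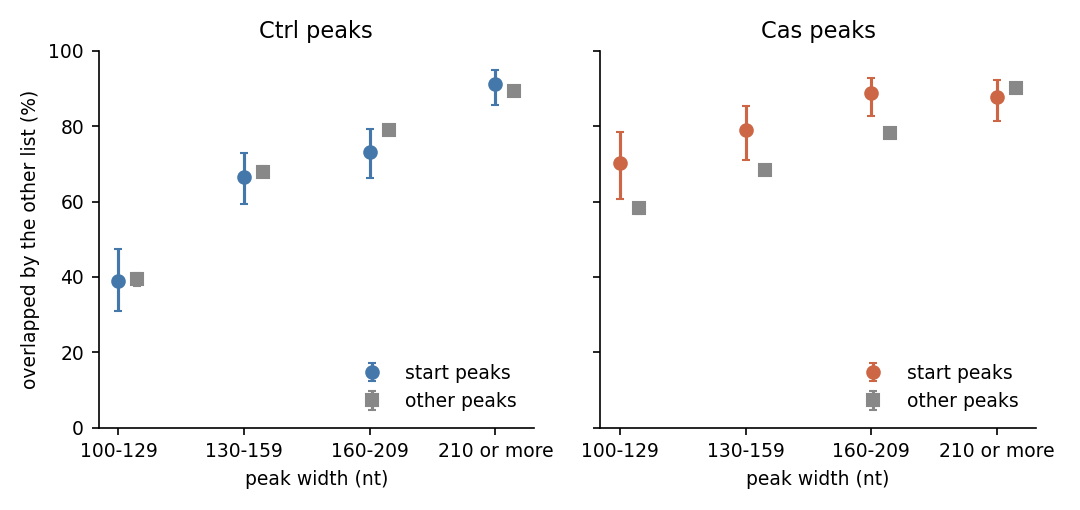
Share of peaks overlapped by at least 1 base of a peak in the other list (y axis, %) by peak width in nt (x axis, 4 classes), for start peaks (coloured circles) and all other peaks (grey squares), Ctrl on the left and Cas on the right. Bars are Wilson 95% intervals. In Ctrl the circles sit near the squares in each class, and in Cas they sit above them in the 3 narrower classes.

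On 375 transcripts both lists had a start peak. Since no listed peak was narrower than 100 nt, each start peak covers position 100 and such pairs overlap by construction. Their first positions are bounded by the limit as well. The first position in Cas minus that in Ctrl had a median of 0 nt (quartiles -6 and 14), and 187 pairs began within 10 nt of each other. The last position differed by a median of 0 nt with a wider spread (-30 and 18), and 132 pairs ended within 10 nt. Both ends lay within 10 nt in 87 pairs and were identical in 17. These 17 included SLC7A11, the cystine transporter (75 to 213), OAZ1, the inhibitor of ornithine decarboxylase (71 to 230), CCNE2, a cyclin of S phase entry (90 to 341), and EXOSC7, a subunit of the RNA exosome (31 to 130).

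Among the widest peaks, ZNF609, a zinc finger gene that also gives a circular RNA, had one at 54 to 692 in Ctrl and 69 to 707 in Cas, 639 nt wide in both. NAMPT, the rate-limiting enzyme of NAD salvage, was covered from 52 to 595 in Ctrl and from 91 to 595 in Cas. MGAT5, a glycosyltransferase of branched N-glycans, had 41 to 530 and 82 to 392. DDX23, a spliceosomal helicase, had 86 to 450 and 91 to 478. PRIM2, the large primase subunit, had 1 to 380 and 5 to 350. RP2 had 46 to 424 and 59 to 366, UBR2, a ubiquitin ligase of the N-degron pathway, 56 to 430 and 78 to 400, and PIGM, a mannosyltransferase of GPI anchors, 88 to 440 and 99 to 410. Over all 375 pairs the peak began later in Cas in 186, earlier in 126 and at the same position in 63. DNAJC24 and LRBA were the other 2 of the 10 widest, each wide in 1 list alone.

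The ends of some pairs lay far apart. In Cas the peak reached farther in DNAJC24, a co-chaperone gene (53 to 191 in Ctrl, 52 to 711 in Cas), and in GMFB (65 to 218 and 16 to 497). It also did so in AMD1, the decarboxylase that makes the propylamine donor of polyamines (4 to 142 and 3 to 366), in ZNF148 (82 to 193 and 21 to 400) and in TRAPPC13 (73 to 216 and 50 to 410). In Ctrl it reached farther in LRBA (44 to 600 and 67 to 205), ZNF449 (35 to 568 and 92 to 191), FANCM, a helicase of the Fanconi anaemia pathway (81 to 560 and 91 to 210), FAM72D (45 to 538 and 44 to 192) and SLMAP (51 to 518 and 62 to 201). FAM72D belongs to 4 near-identical gene copies, FAM72A to FAM72D, which all had a start peak in both lists. Reads cannot be split surely among them, so they are to be read as 1 observation, although the gene counts above hold each copy. These 10 genes were chosen for their ends.

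Start peaks with no overlap in the other list were also named by width. In Ctrl the widest were ZBTB8B (31 to 460), MINDY2, a deubiquitinase (41 to 410), ZNF789 (1 to 330), AP3B1, a subunit of an adaptor complex of endosomal transport (94 to 400), YTHDF3 (73 to 358), WNT5A, a Wnt ligand (51 to 330), PPOX, an enzyme of haem synthesis (1 to 280), SLC7A6 (81 to 310), MAK16 (67 to 290) and PEX16, a peroxisome assembly factor (1 to 220). In Cas they included STK38L, a kinase (88 to 420), UTP11, a factor of ribosomal RNA processing (73 to 400), NXT2 (31 to 340), DCP1A (64 to 326), INHBA, the inhibin beta A subunit (1 to 260), NR2C1, an orphan nuclear receptor (75 to 333), NOL12 (90 to 337), DYNC2LI1 (31 to 270) and FAM32A (50 to 280). The widest in Ctrl was 430 nt and in Cas 333 nt. Several of these transcripts had shared peaks farther in: WNT5A kept peaks at 914 to 1046 and 1402 to 1577 in Ctrl that Cas peaks overlapped, and the Ctrl list had 3 peaks on INHBA, at 461 to 1197, 1405 to 1581 and 2193 to 2314, each overlapped in Cas.

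Histone genes had the highest share of start peaks among the 11 gene lists examined. Of the listed histone genes with any peak, 8 of 11 had a start peak in Ctrl and 8 of 13 in Cas, 6 in both and 10 in either. The 10 were 5 genes of histone H2B and 5 of histone H4. The histone H4 genes H4C15 and H4C16, which also had start peaks in both lists, were not in this gene list and are not counted. H4C14 and H4C3 began at position 1 in both lists, H4C3 ending at 190 in Ctrl and 160 in Cas, and H4C5 spanned 31 to 160 and 31 to 150. H2BC11 spanned 1 to 100 in Ctrl and 18 to 180 in Cas, H2BC12 11 to 110 and 65 to 220, and H2BC17 23 to 180 and 51 to 150. H4C1 (1 to 160) and H2BC7 (35 to 179) had a peak in Ctrl alone, and H4C8 (21 to 160) and H2BC5 (36 to 140) in Cas alone. The models of these genes are short, with a median of 583 nt in Ctrl and 549 nt in Cas, so the first 100 nt are a large part of them. Of all transcripts with a listed peak and a model of at most 1000 nt, 12.6% in Ctrl (9.5 to 16.55) and 10.35% in Cas (7.64 to 13.9) had a start peak. The coding sequences of the histone genes are close paralogs, between which reads may be shared. Replication-dependent histone mRNAs mostly end in a stem-loop without a poly(A) tail, and the libraries were made from polyadenylated RNA.

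**Figure D3:**
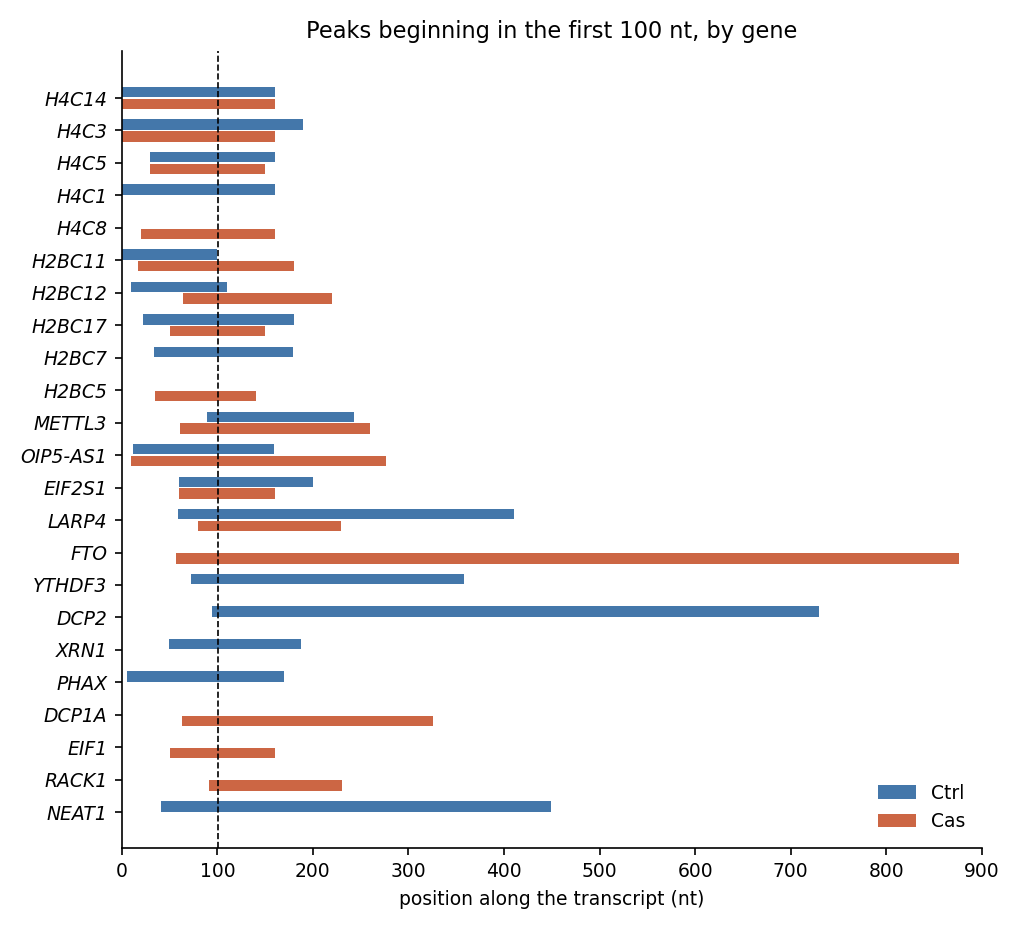
Start peaks along the transcript (x axis, nt from the 5′ end) of the 23 genes of the lists that had one (y axis), with Ctrl in blue and Cas in orange. A missing bar means no start peak in that list, and the dashed line marks 100 nt. The histone peaks end by 220 nt, while those of FTO in Cas and DCP2 in Ctrl reach past 700 nt.

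Among genes that write, remove and read m6A, start peaks were found on 1 gene per group in each list, a share not below the background. METTL3, the catalytic subunit of the writer, was the one with a start peak among the writer genes with any peak, 9 in Ctrl and 7 in Cas, at 90 to 243 in Ctrl and 62 to 260 in Cas. Of 15 erasers and readers, YTHDF3 had one in Ctrl (73 to 358), which no Cas peak overlapped. FTO, a demethylase of m6A and m6Am, had one in Cas at 58 to 876. It was 819 nt wide, the widest start peak of either list, and the Ctrl list had a peak at 331 to 850 inside it, which begins past the limit. The list of cap methylation and m6Am genes, which also holds decapping and decay factors, had 3 of 23 in Ctrl and 2 of 23 in Cas, none in both. In Ctrl these were DCP2, the decapping enzyme (95 to 730), XRN1, the 5′ to 3′ exonuclease that follows it (50 to 188), and PHAX, a nuclear export adaptor of capped RNA (6 to 170). In Cas they were DCP1A, a decapping cofactor (64 to 326), and FTO. The Ctrl peak of DCP2 began close to the limit, at 95, and Cas listed a narrower peak at 563 to 730 inside it.

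The next lists hold genes known for translational control through the 5′ end and are read against the background of 5.96% and 5.11%. TOP mRNAs, those of ribosomal proteins and translation factors that begin with a C and a run of pyrimidines, had 0 of 54 genes with a start peak in Ctrl and 1 of 63 in Cas (1.59%). The single one was RACK1, a ribosomal scaffold protein (92 to 230). In the list of initiation factors, EIF2S1, the alpha subunit of the initiator tRNA carrier, had 61 to 200 in Ctrl and 61 to 160 in Cas, and LARP4, a poly(A)-binding factor, 60 to 410 and 81 to 229. EIF1, a factor of start codon choice, had 51 to 160 in Cas, on a transcript with no Ctrl peak. That made 2 of 33 genes in Ctrl (6.06%) and 3 of 35 in Cas (8.57%). The list of heat shock and integrated stress response genes had 0 of 19 in both lists, immediate early genes 0 of 16 in both, and snoRNA host genes 0 of 10 and 0 of 12. Lists of 10 to 19 genes hold about 1 start peak or fewer at the background share, so a count of 0 does not set these apart. The TOP list, with 54 and 63 genes, is larger, and its counts were not tested against the background. The directed targets YTHDF2 and SPEN had peaks elsewhere along the transcript and none at the start, and GAPDH had no listed peak. A gene without a listed peak is not shown to lack the mark.

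Genes of type lncRNA were a larger share of start peaks than of other peaks, in Cas with intervals that overlap. They carried 30 Ctrl start peaks (4.69%, 3.31 to 6.62) against 2.49% of other peaks, and 17 Cas start peaks (3.29%, 2.06 to 5.2) against 1.9% (1.73 to 2.09). Transcribed pseudogenes carried 1.41% of Ctrl and 1.55% of Cas start peaks, against 1.43% and 1.29% of other peaks. OIP5-AS1, a cytoplasmic lncRNA, had 13 to 159 in Ctrl and 11 to 276 in Cas. NEAT1, the scaffold RNA of paraspeckles, had 42 to 449 in Ctrl, and its Cas peak there was shorter and began later, at 276 to 425. LINC00294, LINC00662, LINC01089, LINC01278 and SOX21-AS1 had a start peak in both lists. Single-exon models carried 4.56% of Ctrl start peaks (3.15 to 6.55) and 5.15% of those in Cas (3.52 to 7.5), against 1.72% and 1.59% of other peaks.

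The first transcribed base was an A more often on transcripts with a start peak. The share rests on the annotated start, since the lists give no base resolution. On the GENCODE release 29 models paired with 92.6% of Ctrl and 93.8% of Cas members, the model began with A in 35.3% (31.6 to 39.2) of 592 Ctrl and 36.5% (32.3 to 40.9) of 485 Cas start-peak transcripts. On transcripts with other peaks alone it was 28.8% (27.8 to 29.7) and 28.6% (27.7 to 29.6). This measure was added after the data were seen. The measure chosen first, the RefSeq gene start, was at hand for 79.2% of Ctrl and 79.5% of Cas members, which is below 80% and makes it void as a statement on all members. Where it was at hand, A came first in 56.1% of 506 (51.8 to 60.4) and 55.2% of 411 (50.4 to 60), against 44% (42.9 to 45) and 44.3% (43.2 to 45.4) on transcripts with other peaks alone and 44.3% of 27305 RefSeq gene starts. A preceded by C, the common initiator pair, was found in 41.3% and 40.1% of start-peak genes, in 32.5% and 32.8% of those with other peaks alone and in 29.4% of the RefSeq gene starts. A first C, the TOP base, was found in 8.7% and 8.03%, against 12.1% and 12.2%. The gene start need not be that of the listed transcript. Where model and gene start matched within 10 nt, A came first in 54.9% of 111 and 54.8% of 84 start-peak transcripts, against 43.3% and 43.6%. The share differed by gene type. In Ctrl A came first at the RefSeq start in 21.4% (10.2 to 39.5) of 28 lncRNA or pseudogene members and 58.2% (53.7 to 62.5) of 478 protein-coding ones. In Cas the shares were 40% (19.8 to 64.25) of 15 and 55.8% (50.9 to 60.6) of 396.

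By position, the share of A at the RefSeq start was 53.4% to 58.9% in the 4 classes of 25 nt up to 100 in Ctrl and 43.4% at 501 to 1000, where 3112 transcripts were counted. In Cas it was 53.3% to 58% in those 4 classes and 43.7% at 501 to 1000. Next to the limit, at 101 to 150, it was 47.9% (41.4 to 54.5) in Ctrl and 51.3% (44.3 to 58.2) in Cas. At 151 to 200 it was 49% and 39.9%. The trait is thus not sharply bounded at 100 nt. On GENCODE models the 4 classes up to 100 ran from 31% to 40.1% in Ctrl and from 34.6% to 40.2% in Cas. At 501 to 1000 the shares were 28.6% and 28.2%. On GENCODE models the interval of a single class included the 501 to 1000 value at 1 to 25 and 51 to 75 in both lists and at 76 to 100 in Ctrl. Ctrl start peaks with no Cas partner had an A in 53.1% (45.4 to 60.7) of 160 genes and those with one in 57.5% (52.3 to 62.6) of 346. In Cas the shares were 47.4% (36.5 to 58.5) of 76 and 57% (51.7 to 62.2) of 335. The intervals overlap within each list. GC content, which also differs along a transcript, is given next, and its part in the share of A was not tested.

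Motifs were searched on the transcript strand of the GENCODE models. Peak positions were laid on the model, whose 5′ end can differ from that of the listed transcript. DRACH was present in 89.9% (87.2 to 92) of 592 Ctrl and 90.5% (87.6 to 92.8) of 485 Cas start peaks, against 97.5% and 97.2% of other peaks. The other peaks are wider, and the density was also lower, 17.7 DRACH per kb in each list against 23.5 and 23.3. GGACT, the frequent form of DRACH and counted within it, was present in 21.1% (18 to 24.6) and 21.4% (18 to 25.3), against 27.3% and 25.5%. Its density was nearly the same, 1.44 per kb against 1.48 in Ctrl and 1.31 against 1.4 in Cas. On models with a matching start (111 Ctrl and 84 Cas start peaks) it was 1.779 against 1.585 in Ctrl and 1.231 against 1.473 in Cas. The order of the GGACT densities thus turned in Ctrl. GGACT was present there in 26.1% (18.85 to 35) and 23.8% (16 to 33.9), against 28.8% and 27.15%. DRACH had 19.7 and 20.3 per kb there, against 24.5 and 24.1. Start peaks had a median GC content of 58.4% in Ctrl and 57.1% in Cas, against 48.2% and 48.1%. Set against other starts in place of other peaks, the order turned. In a fixed window of 160 nt at positions 51 to 210, DRACH was found in 91.6% (89 to 93.5) of Ctrl start-peak transcripts and 84.9% (84.1 to 85.6) of transcripts with other peaks alone, in Cas in 90.9% (88 to 93.2) and 85.1% (84.3 to 85.8). GGACT in that window was found in 20.3% (17.2 to 23.7) and 16.4% (15.7 to 17.2) in Ctrl, and in 19.4% (16.1 to 23.1) and 16.7% (15.9 to 17.5) in Cas. The median GC of the window was 58.8% on start-peak transcripts of both lists and 65% on the others. Start peaks thus lay on 5′ ends with less GC and more DRACH than other 5′ ends, yet with more GC and less DRACH than peaks elsewhere.

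On models with a matching start, GGACT within the bases shared by both lists' start peaks is shown with 10 bases to either side, because these are the places where the usual m6A context and both peaks coincide. The capitals mark GGACT.
MTHFD1: cgtgggcagcGGACTaataaaggcc
C11orf71: gacacaggctGGACTgatctgggga
RPUSD2: agctttaccaGGACTtggagtggcg
PRMT6: cgaccccggaGGACTaagcgggaac
DDX23: aagcgatcacGGACTcctgacagag
TBC1D24: gcggcgctatGGACTctccaggata
PSMB3: tggtgaccacGGACTtccagaagat
CCNK: acaacttgaaGGACTtgatccagcc
PPAT: gatcactctgGGACTcgtggggctg
SOX21-AS1: tcccgctgctGGACTgacgggtggg
LINC00294: tcaccacactGGACTcaaataccat
The A lay at transcript position 66 in MTHFD1 and 107 in C11orf71, both in the 5′ UTR. It lay in coding sequence at 117 in RPUSD2, 152 in PRMT6, an arginine methyltransferase, 153 in DDX23, 164 in TBC1D24, 204 in PSMB3, a proteasome subunit, 243 in CCNK, the cyclin of CDK12, and 246 in PPAT, the first enzyme of purine synthesis. The last 2 lines are from noncoding transcripts. These windows are from GENCODE on GRCh38, on the plus strand at chr14:64388403-64388427 (MTHFD1), chr1:107056818-107056842 (PRMT6), chr15:40569404-40569428 (RPUSD2), chr13:94712830-94712854 (SOX21-AS1), chr11:33076286-33076310 (LINC00294), chr16:2496141-2496165 (TBC1D24), chr17:38753247-38753271 (PSMB3) and chr14:99492785-99492809 (CCNK), and on the minus strand at chr12:48845698-48845722 (DDX23), chr4:56435358-56435382 (PPAT) and chr11:114400393-114400417 (C11orf71). A match is a sequence and not a measured site.

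Transcripts with a start peak had shorter 5′ UTRs. Over all models the median 5′ UTR was 140.5 nt in Ctrl (median's 95% interval 130 to 158) and 139 nt in Cas (120 to 152), against 214 (209 to 218) and 213 (208 to 217) on transcripts with other peaks alone. The share of transcripts with a start peak was 8.72% of those with a 5′ UTR of at most 50 nt in Ctrl (7.15 to 10.6) and 3.92% of those with over 400 nt (3.15 to 4.88). In Cas it was 8.8% (7.2 to 10.7) and 3.54% (2.79 to 4.49), falling through the 3 classes between in both lists. Many start peaks therefore covered coding sequence, as far as the models place them. Positions counted on the listed transcript were laid on the paired model, whose 5′ end can differ. The models of H2BC11, H2BC12 and H2BC17, for example, have a 5′ UTR of 0 nt and begin 45, 60 and 38 nt past the RefSeq gene start. Over all models 64.5% of 558 in Ctrl (60.5 to 68.4) and 68.8% of 459 in Cas (64.5 to 72.9) reached past the start of the coding sequence, and 49.5% and 48.6% covered the start codon. Wholly in the 5′ UTR were 35.5% and 31.2%. On spliced models, 46.4% of 565 in Ctrl and 52% of 460 in Cas crossed the first exon junction, and 47.3% and 42% lay wholly in the first exon. Models that match the RefSeq gene start make up 17.4% of the Ctrl and 16.2% of the Cas members, too few to stand for them all. On these, 73 of 100 Ctrl and 66 of 76 Cas start peaks reached coding sequence.

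Start peaks were the only listed peak of their transcript in 21% of cases in Ctrl (18 to 24.3) and 19.9% in Cas (16.7 to 23.6). Most transcripts with a start peak thus had further peaks: GCN1 had 7 in each list and CDK12 6 in Ctrl. Of other peaks, 17.7% and 16.4% were alone, but a transcript can hold several of these, so the units differ. Among peaks beginning at 101 to 200 the shares were 21.6% and 21.3%, so this trait is not particular to start peaks. The identity of the line was checked on its markers: of 6 markers, the embryonic neuronal and renal genes SALL2, NEFL and NEFM had peaks in both lists, PAX2 and LHX1 in Ctrl alone and INA in neither. Of 7 markers of other cell types, COL1A1, a collagen of fibroblasts, had 2 Ctrl and 3 Cas peaks and the other 6 none. Peaks do not measure expression.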

How the data were processed

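Per the submitters' processing notes, FastQC, fastp, HISAT2, SAMtools, edgeR and HOMER were used on GRCh38. Versions, roles, peak caller, threshold, use of the input and the transcript set's release were not given in the sources used. The authors deposited peak positions, in other words a RefSeq transcript with a first and a last position per line, with no count or score, so depth is unknown.

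Peaks were read in Python 3.11.15 with pandas 2.3.3. The members and gene lists were chosen with earlier results of these data known. Genes were named by rule: list members with a start peak, the 10 widest shared start peaks, the 10 widest without overlap in each list, the 5 pairs with ends farthest apart in each direction, and the targets. Symbols of pseudogenes and multicopy genes were passed over in the rules on width and ends, although FAM72D, which has near-identical copies, was kept. Some genes the rule takes are not reported here. Other genes were named for their position after it was seen. Gene names came from RefSeq (GRCh38.p14), which matched all but 1 start-peak accession, first bases from its promoter table, and UTRs, exons and motifs from the single GENCODE release 29 model paired with each accession. Intervals are Wilson 95%; no test between libraries was made. The overlap script was tested on simulated data.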

Additional observations from a re-analysis of the deposited data

How the results depend on the processing

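No paired analysis was possible because there was only 1 library a group. Of 94 alternatives to 21 values, 57 stayed within the interval of the value reported or, for counts, within 1.5 times it, and 37 moved; the causes were not tested beyond what the settings themselves change. With a limit of 50 nt in place of 100, start peaks were 1.21% of Ctrl and 0.925% of Cas peaks, 43.9% and 40.6% of them began in the first 25 nt, GGACT was in 16.4% and 13.9% of those on matching models, and genes numbered 134 in both lists, 150 in Ctrl alone and 79 in Cas alone. With a limit of 200 nt, the shares of peaks were 4.9% and 4.33%, those in the first 25 nt 10.8% and 8.69%, the Ctrl median width 166 nt, A first in Cas 50.3%, and genes 746, 408 and 254. Ctrl exceeded Cas in the share of peaks at each limit. Without peaks on the grid, removed from both lists, the overlapped share in Cas was 75% (82.6% with them), the Ctrl median width 166 nt, the share in the first 25 nt 15.9% and 12.5%, and the share alone on their transcript 25.3% and 26.3%. A reciprocal overlap of 50% gave 61.2% in Ctrl (68.4% at 1 base) and 75.4% in Cas. Requiring a start peak as partner gave 58.7% and 72.5%. Keeping the wider 50% of both lists gave 49.2% and 49.7%, with 82 genes in both, 113 in Ctrl alone and 118 in Cas alone, which turns the order of the last 2; partners were removed as well. Any A in the first 3 bases was found in 72.9% and 69.8%, and A first on GENCODE models, added after the data were seen, in 35.3% and 36.5%. The Cas share reaching coding sequence was 86.8% on matching and 68.8% on all models.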
